A study of Mus musculus with 16 samples.

Results

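Ribosome biogenesis and nucleolar genes were examined in single light zone (LZ) germinal center (GC) B cells of the mouse. The group holds 40 genes chosen by name, each found as 1 row among the 56691 gene rows of the deposited count matrix. By role it comprises 4 proteins of box C/D small nucleolar ribonucleoproteins (snoRNPs), 3 of box H/ACA snoRNPs, 3 of RNA polymerase I transcription, 11 of small subunit processing, 14 of large subunit assembly and 5 multifunctional nucleolar proteins.

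The cells were sorted from lymph nodes of 8 host mice that carried transferred B cells of 2 genotypes, B1-8hi BTKC481S and B1-8hi BTKWT. B1-8hi is a knock-in heavy chain that gives a receptor for the hapten NP, and the change in BTKC481S makes the kinase BTK insensitive to covalent inhibitors such as acalabrutinib. Acalabrutinib had been given to 5 hosts (A7, A8, A10, A11 and A12) and vehicle alone to 3 (V5, V7 and V9). GEO lists 16 samples, 1 for each genotype in each host, but a cell's name in the matrix holds its host, plate and well and not its genotype. Both genotypes of a host were therefore pooled, so that each acalabrutinib host mixed drug-sensitive and drug-resistant cells, and genotypes were not compared here. The animals' ages are not in the labels, and the study's methods place the cells in 2 independent experiments without saying which host belongs to which.

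Ribosome production starts in the nucleolus, where RNA polymerase I transcribes the long precursor of ribosomal RNA. SnoRNPs then guide its chemical modification, box C/D particles by methylation and box H/ACA particles by pseudouridylation, and large assemblies fold and cleave it into the small and large subunits. The transcription factor MYC is a known activator of many genes of this pathway, and in the LZ it is transiently expressed in GC B cells that have received T cell help and will divide. For this reason the 40 genes are described by detection of Myc RNA, by cell cycle phase and by host.

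The matrix held 637 cells with a median of 789357 counts per cell, between 132412 and 1825420, and no cell had more than 2.68% mitochondrial counts. Per host there were 45 to 130 cells. At least 1 Myc count was found in 177 cells (27.8%, called Myc-positive), with a median of 358 Myc counts, and the other 460 were called Myc-negative. Phase scores placed 255 cells in G1, 220 in S and 162 in G2/M. Myc-positive cells had more counts and more genes detected than Myc-negative cells, with medians of 890495 against 751578 counts and 4329 against 3800 genes, and G1 cells had fewer genes (3489) than S (4228) or G2/M cells (4400). All comparisons were therefore repeated with each cell thinned to 459128 counts, which left out 64 cells. Of the 6 B cell and 6 GC marker genes, Ms4a1 alone was at 0 in every cell. The T cell list summed to 165 to 395 CPM per host (counts scaled to a fixed total per cell or group of cells), of which Lck alone gave 159.5 to 379 CPM, and the other 6 of its genes were each found in at most 2.67% of cells. The macrophage list summed to 22 to 36.3 CPM per host. Of its genes Adgre1 was found in 38.15% of cells, Cd68 in 9.1% and the others in at most 2.2%. Of the follicular dendritic and stromal list Cxcl13 was at 0 and Fdcsp had no row. Col1a1 was found in 1.57% of cells and Col1a2 in 0.63%. Marker lists differed with Myc detection in both directions. The LZ markers summed to 2629 CPM in Myc-positive and 1901 CPM in Myc-negative cells, the T cell list to 299 and 262 CPM and the plasma cell list to 1340.0 and 1277 CPM. The dark zone list summed to 522 and 744 CPM, the GC list to 2056 and 2586 CPM, the B cell list to 2977 and 3676 CPM and the macrophage list to 16.6 and 38.5 CPM. Their part in the results that follow was not tested.

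Promoters of a few members are shown first, because Myc detection is the main contrast and MYC binds the E-box CACGTG and, less tightly, CACGCG. In the RefSeq promoter windows of build GRCm38.p6, which run from 250 bases before to 50 bases after each start site, 35 of the 40 members had an entry. Searched on both strands, CACGTG was found in 6 of these 35 genes (17.1%), against 8.09% of the 27025 genes with a window. CACGCG was found in 11 of the 35 (31.4%), against 10.5%. A gene can have more than 1 window, and the 27025 genes were not limited to those detected in these cells. CACGTG reads the same on both strands, and the motifs do not contain each other. CACGTG was found in Mybbp1a, Nop2, Pes1, Utp20, Utp4 and Wdr43, and CACGCG in Bysl, Ddx21, Mybbp1a, Nifk, Nip7, Noc2l, Nolc1, Nop16, Pes1, Ppan and Utp15. Parts of 6 windows are printed 5′ to 3′ on the strand of the gene, with the motif in capitals, as CGCGTG where CACGCG lies on the opposite strand. In Mybbp1a the last bases of the marked CACGCG and the lower-case bases after it also spell CGCGTG, an overlapping match on the opposite strand. The windows are those of Nop2 (chr6:125131776-125131875, plus strand), Wdr43 (chr17:71616220-71616249, plus), Pes1 (chr11:3963965-3963994, plus), Mybbp1a (chr11:72441165-72441264, plus), Nolc1 (chr19:46075775-46075846, plus) and Ddx21 (chr10:62602249-62602272, minus).
Nop2: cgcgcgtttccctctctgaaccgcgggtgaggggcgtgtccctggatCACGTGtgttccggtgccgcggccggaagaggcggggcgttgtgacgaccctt
Wdr43: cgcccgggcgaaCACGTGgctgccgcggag
Pes1: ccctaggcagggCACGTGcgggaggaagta
Mybbp1a: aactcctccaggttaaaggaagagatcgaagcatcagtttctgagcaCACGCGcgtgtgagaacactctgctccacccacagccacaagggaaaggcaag
Nolc1: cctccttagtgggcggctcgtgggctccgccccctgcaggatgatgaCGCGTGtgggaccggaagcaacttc
Ddx21: cctctctcctagCACGCGgttgag
In Nop2, Mybbp1a and Nolc1 the capitals begin 60, 115 and 25 bases before the start site, and in Wdr43, Pes1 and Ddx21 they begin at base 18, 3 and 39 counted from 1 at the start site. A match describes these letters and says nothing on binding in these cells, and a missing match says only that the letters are not in the window. Nop58 and Nop56, which differed most by Myc detection among the snoRNP genes, held neither motif in this window.

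Detection of the 40 genes differed widely. The share of cells with a count ran from 10.5% (Noc2l) to 89.8% (Npm1) with a median of 26.7%, and 22 genes were detected in at least 25% of cells. All 40 therefore passed the limit of detection in 10% of cells that the comparisons of mean levels used. Where a gene was detected it mostly had many counts, with a median of 504 counts for Ncl and 362 for Nop58 in the cells that had any, although Utp20 had 18 and Noc3l 21. The levels given below, the mean over cells of log2(CPM + 1), therefore move largely with the share of cells that have a count. They are not scaled to transcript length and are compared between cells, not between genes. A cell had a count of 11 of the 40 genes in the median, with the middle range from 7 to 17 and extremes of 1 and 37.

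Myc-positive cells held more of these genes than Myc-negative cells. With the cells of all hosts pooled, the median was 18 of 40 genes in Myc-positive and 9 in Myc-negative cells, and thinning left both medians unchanged. Thinning evens out counts and not the number of genes detected, and it hardly changes whether a gene with many counts has any. Ncl was found in 85.4% of all cells and in 86.2% of the thinned cells, which leave out the shallowest. The largest falls were those of Utp20, from 31.55% to 27.05%, and Polr1a, from 27.3% to 24.4%. After thinning the mean level over the 40 genes had an r of 0.58 with the number of genes detected. The part of that number in the difference by Myc was not tested. The mean level over the 40 genes was higher in Myc-positive cells of 8 of 8 hosts, by 0.83 (A10) to 1.78 (A7) on the log2(CPM + 1) scale, with a mean difference of 1.38 ± 0.34 (SD, n = 8 hosts). At equal depth it was higher in 7 of 7 hosts by 1.41 ± 0.36 (SD), A7 having fewer than 5 Myc-positive cells left. Of the 40 genes, 14 were higher in every host, against 4.3% of 10617 genes tested, and 0 were lower in every host.

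**Figure D1:**
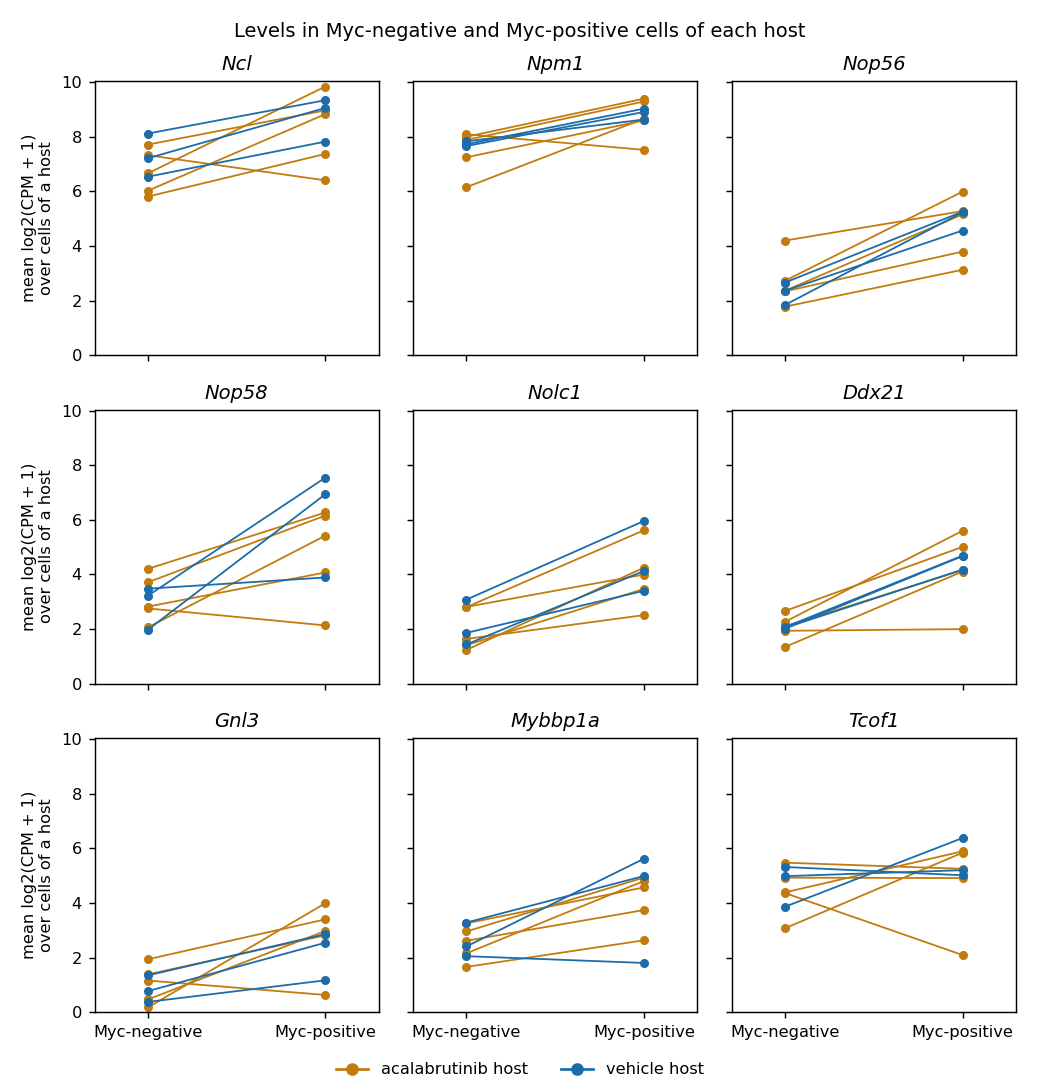
Mean log2(CPM + 1) over the Myc-negative and Myc-positive cells of each host (1 line per host, orange for acalabrutinib and blue for vehicle) for 9 of the 40 genes. Nop56 is higher in the Myc-positive cells of every host, Tcof1 in those of 4 of 8.

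Among the box C/D proteins, Nop58 and Nop56 form the core of the particle together with the methyltransferase fibrillarin (Fbl). Nop58 stood at 1.97, 3.02 and 4.20 (lowest, median and highest of 8 hosts) in Myc-negative cells and at 2.13, 5.79 and 7.55 in Myc-positive cells, where 40% to 89.4% of a host's cells had a count. The ranges overlapped. Among the hosts where it was higher, A10 and V7 had the smallest differences, and in A7, with 5 Myc-positive cells, it was lower. Nop56 stood at 1.78, 2.36 and 4.20 in Myc-negative and 3.13, 5.19 and 5.99 in Myc-positive cells, and was higher in each host. Fbl went from 1.13, 1.62 and 2.57 to 1.44, 2.54 and 4.05.

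The H/ACA group contains dyskerin (Dkc1), the pseudouridine synthase, its partner Gar1, and Nolc1, a chaperone of snoRNPs. Nolc1 stood at 1.24, 1.75 and 3.08 in Myc-negative cells and at 2.51, 4.06 and 5.96 in Myc-positive cells, and was higher in every host. Gar1 stood at 0.16, 0.43 and 0.76 against 0, 1.19 and 4.39. Its highest value was in A7, and it had no count in the Myc-positive cells of V7. Dkc1 in Myc-positive cells reached 9.20 in V7, which had 6 such cells, against 1.88 to 5.73 in the other hosts. Of the polymerase I group, the largest subunit Polr1a went from a median of 1.10 to 2.43 and Polr1b from 0.61 to 1.95. Tcof1, which encodes the rDNA transcription factor treacle, differed from these. It stood at 3.07, 4.66 and 5.47 in Myc-negative and 2.09, 5.22 and 6.38 in Myc-positive cells and was higher in 4 of 8 hosts.

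In the small subunit group Wdr43, a component of the complex that binds the nascent precursor, went from 2.01, 3.08 and 3.55 to 2.07, 4.59 and 6.24. Heatr1 of the same complex went from 0.30, 1.02 and 1.87 to 0, 1.80 and 2.58, and the processome component Utp20 from 0.87, 1.34 and 1.54 to 0.71, 2.15 and 3.02. The later factors differed between themselves, Bysl going from medians of 0.62 to 1.53 and Nob1, the nuclease that forms the end of the small subunit RNA, from 0.97 to 2.34. In the large subunit group Bop1, which forms the PeBoW complex with Pes1 and Wdr12, went from 0.38, 1.81 and 2.96 to 2.51, 4.03 and 4.62. The medians of its partners went from 2.42 to 3.22 (Pes1) and from 1.18 to 2.93 (Wdr12), and all 3 groups of values overlapped between the classes. The nucleolar GTPase Gnl3 (nucleostemin) went from 0.17, 0.96 and 1.94 to 0.63, 2.84 and 3.99, and A10 was the host in which it was lower. Of the multifunctional proteins, nucleolin (Ncl) went from 5.81, 6.94 and 8.12 to 6.40, 8.90 and 9.84, nucleophosmin (Npm1) from 6.15, 7.78 and 8.09 to 7.52, 8.78 and 9.39, the growth-associated Pa2g4 from 3.11, 4.67 and 5.82 to 4.21, 5.84 and 7.31, the transcriptional regulator Mybbp1a from 1.66, 2.51 and 3.28 to 1.80, 4.69 and 5.62, and the RNA helicase Ddx21 from 1.35, 2.06 and 2.66 to 2.0, 4.43 and 5.60. A10 was again apart for several of these genes: Ncl, Npm1 and Pa2g4 were lower in its Myc-positive cells, and Ddx21 differed by 0.06. Mybbp1a was higher in the Myc-positive cells of A10 (3.74 against 2.62) and lower in those of V5 (1.80 against 2.05). In summed counts Ncl of A10 was instead higher, at 693 CPM in Myc-positive and 620 CPM in Myc-negative cells.

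The 2 ways of testing these differences gave different counts. With counts summed per host and class and compared by edgeR's quasi-likelihood test with host as a block, 0 of the 40 genes passed a Benjamini-Hochberg adjusted p of 0.05, where 0.019% of 21032 genes were called higher. At an unadjusted p under 0.05 there were 18 members, all higher, and DESeq2 on the same sums called 16 higher and 0 lower, against 1.14% of genes called higher. Throughout, edgeR and DESeq2 tested more genes than the 10617 detected in at least 10% of cells, a limit that all members passed. Their shares of all genes therefore include genes detected more rarely than any member. Here and below, counts at an unadjusted p stand without the share of all genes and cannot be set against it. The exception is the comparison of acalabrutinib with vehicle hosts. By edgeR the median log2 fold change of the 40 genes was 0.87 when that of all genes was -0.72, so the summed libraries were not centred on 0, and 36 of 40 members were above 0. The smallest adjusted p by edgeR was that of Ncl, 0.148, with a log2 fold change of 0.59 ± 0.10 (SE), followed by Nolc1 (0.99 ± 0.22) and Nop56 (1.0 ± 0.23). The comparison of mean log2(CPM + 1) per host and class by limma, a reading chosen after the summed counts had been seen, called 32 of 40 genes higher and 0 lower, where 7.63% of 10617 genes were called higher. The median difference was 1.34 over the members and 0.15 over all genes.

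By limma the largest differences were those of Nop58 (2.84 ± 0.44 SE, adjusted p = 0.0023), Ddx21 (2.37 ± 0.32, adjusted p = 0.00087) and Nop56 (2.32 ± 0.31, adjusted p = 0.00082), followed by Nolc1 (2.13 ± 0.32) and Wdr43 (2.03 ± 0.34). All 4 box C/D genes, all 3 H/ACA genes and all 5 multifunctional genes passed, as did 2 of 3 polymerase I genes, 7 of 11 small subunit genes and 11 of 14 large subunit genes. The 8 that did not pass were Tcof1 (0.72 ± 0.40, adjusted p = 0.295), Utp20, Heatr1, Rrp12, Nob1, Pes1, Noc2l and Wdr74. At equal depth 30 of 40 passed, and 29 of the 32 were among them. Those lost were Dkc1 (adjusted p = 0.071 by limma), Polr1a (0.053) and Polr1b (0.061). No polymerase I gene therefore passed at equal depth. A7 was then left out with fewer than 5 Myc-positive cells, so that depth and hosts changed at once. The difference went from 1.607 to 1.435 for Dkc1, from 1.21 to 1.33 for Polr1a and from 1.143 to 1.144 for Polr1b. Without V9, which held 47 of the 177 Myc-positive cells, 12 genes passed, all among the 32. Without any other host 22 to 31 did, A11 with its 50 Myc-positive cells included.

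**Figure D2:**
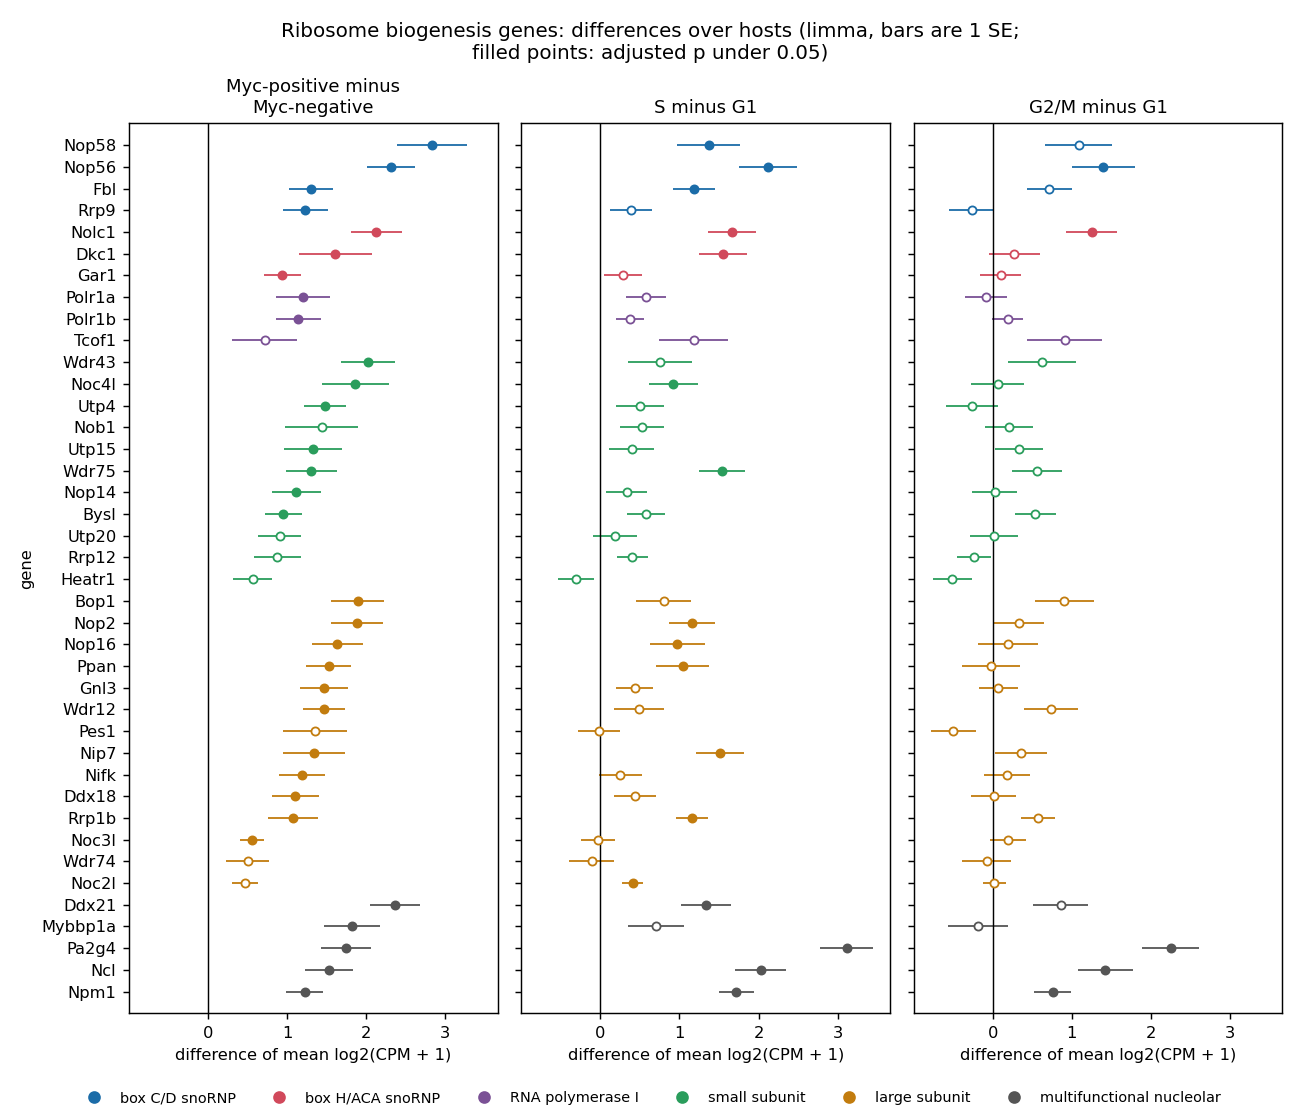
Differences of mean log2(CPM + 1) for each of the 40 genes, with 1 SE, from limma over 8 hosts, for Myc-positive minus Myc-negative, S minus G1 and G2/M minus G1 cells, coloured by role. Filled points passed an adjusted p of 0.05: 32 for Myc, 17 for S and 5 for G2/M.

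Cell cycle phase was the next axis, since 123 of the 177 Myc-positive and 259 of the 460 Myc-negative cells were placed in S or G2/M. Pa2g4, which encodes the growth-associated protein EBP1, moved most between phases. In G1 its level was 1.88, 3.20 and 4.89 (lowest, median and highest host) and in S 4.88, 6.45 and 7.37, and the share of cells with a count went from a median of 39.2% to 84.5%. Ncl stood at 4.60, 6.13 and 7.80 in G1 and 7.67, 8.46 and 8.96 in S, and Npm1 at 5.69, 7.16 and 8.07 against 7.83, 8.98 and 9.75. The ranges of all 3 overlapped, that of Pa2g4 by the least, with V7 highest in G1 and V5 lowest in S. The mean over the 40 genes was higher in S than in G1 in 8 of 8 hosts, by 0.42 to 1.55 with a mean of 0.81 ± 0.39 (SD), and higher in G2/M than in G1 in 8 of 8 hosts by 0.40 ± 0.36. In S 9 genes were higher in every host, against 11.3% of all genes tested. In G2/M 3 were, against 11.5%, with a median difference of 0.24 over the members and 0.20 over all genes. By role the mean G2/M difference was 1.02 for multifunctional, 0.80 for box C/D, 0.50 for H/ACA and 0.37 for polymerase I genes. It was 0.25 for large subunit genes, higher in 5 of 8 hosts, and 0.14 for small subunit genes, higher in 4 of 8.

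In the edgeR test of S against G1, Pa2g4 (log2 fold change 0.75 ± 0.17 SE, adjusted p = 0.018) and Npm1 (0.40 ± 0.09, adjusted p = 0.028) rose, which makes 2 of 40 members where 1.62% of 17947 genes were called higher. DESeq2 called 4 higher, adding Ncl and Nop56, against 5.79% of the same 17947 genes, a set that also holds genes detected more rarely than any member. The limma reading called 17 members higher and 0 lower, against 20.5% of all genes, with a median of 0.64 over the members and 0.17 over all genes. These were 4 of 5 multifunctional genes, 3 of 4 box C/D, 2 of 3 H/ACA, 6 of 14 large subunit, 2 of 11 small subunit and 0 of 3 polymerase I genes. The differences were 3.12 ± 0.34 for Pa2g4, 2.12 ± 0.36 for Nop56, 2.03 ± 0.32 for Ncl, 1.72 ± 0.22 for Npm1 and 1.66 ± 0.30 for Nolc1, each in mean log2(CPM + 1). At equal depth 13 passed by limma. EdgeR then called Pa2g4 (adjusted p = 0.0074) and Ncl (0.046), while Npm1 did not pass (0.070). Both calls of edgeR on the full counts were lost when any 1 of A12, A7, A8 or V9 was left out.

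In G2/M against G1, edgeR called 0 members (3 higher and 1 lower at an unadjusted p under 0.05), against 1.62% of genes called higher. DESeq2 called 0 higher, where 5.52% of genes were, and Pes1 lower (log2 fold change -0.81, adjusted p = 0.0097). By limma 5 members were higher, Pa2g4 (2.25 ± 0.36), Ncl (1.42 ± 0.34), Nop56 (1.40 ± 0.39), Nolc1 (1.25 ± 0.33) and Npm1 (0.76 ± 0.24), where 19.2% of all genes were called higher. That share of members lies below the share of all genes. At equal depth Npm1 did not pass by limma (0.55, adjusted p = 0.089), and the other members named did. Pes1 stood at 2.01, 2.63 and 3.34 in G1 and at 1.39, 2.25 and 3.11 in G2/M, and the ranges overlapped.

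Splitting the cells by both Myc detection and phase kept the difference by Myc in view. In G1 the median Myc-positive cell had a count of 16.5 of the 40 genes and the median Myc-negative cell of 8. In S the medians were 19 and 11, and in G2/M 17 and 9. After thinning they were 16.5 and 8, 18 and 11, and 18.5 and 9. These medians pool the cells of all hosts, which the classes held in unlike shares. Before thinning A11 and V9 gave 17 and 12 of the 54 Myc-positive G1 cells, and 21 and 30 of the 201 Myc-negative ones. Their means over the 40 genes in all their G1 cells, 2.57 and 2.23, were the highest of the hosts. The part of the hosts in these medians was not tested.

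**Figure D3:**
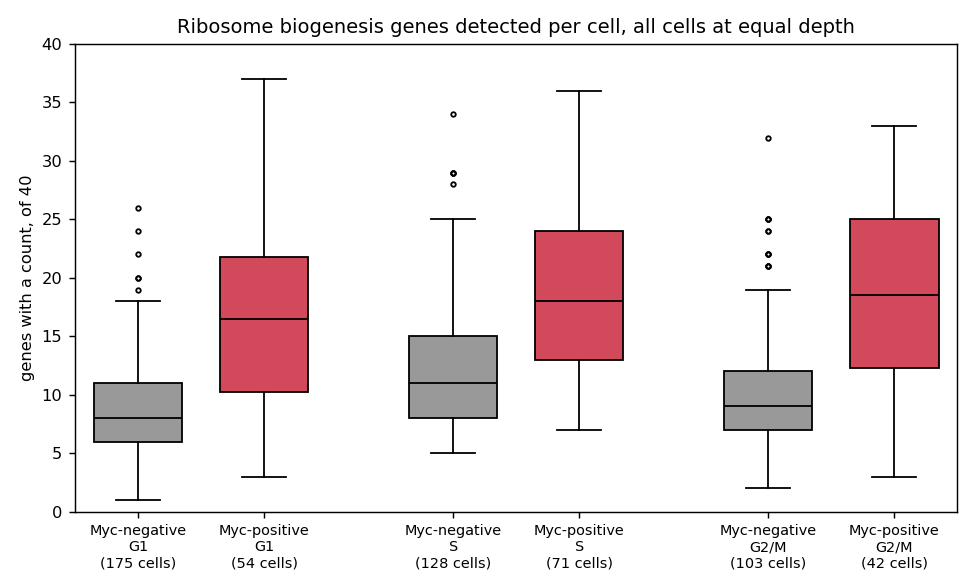
Number of the 40 genes with a count in each cell after thinning to equal depth, for Myc-negative (grey) and Myc-positive (red) cells in G1, S and G2/M. Cells of all hosts are pooled, and the hosts' shares differ between the classes. Boxes span the quartiles with the median as a line, whiskers reach the last cell within 1.5 times the box height and points are the cells beyond them. Medians are 8 and 16.5 in G1, 11 and 18 in S, and 9 and 18.5 in G2/M.

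Within G1, 4 hosts (A8, A10, A11 and V9) had at least 5 cells in both classes, and the mean over the 40 genes was higher in Myc-positive cells in 4 of 4, by 0.26 (A10), 1.38 (V9), 1.48 (A8) and 1.69 (A11). EdgeR called 0 members there (8 at an unadjusted p under 0.05, all higher), against 0.0146% of genes, and DESeq2 called 8 against 3.91%. Limma called 1, Nop58, at 3.45 ± 0.70 SE (adjusted p = 0.020), against 0.659% of genes. At equal depth it called 8, but A10, the host with the smallest difference, then had fewer than 5 Myc-positive cells in G1, so that depth and hosts changed at once. The Nop58 call was lost without A8, A11 or V9. Within S and G2/M cells pooled, 5 hosts (A10, A11, A12, V5 and V9) had both classes, and the mean over the 40 genes was higher in 5 of 5, by 0.69 to 1.81. There edgeR called 0 (5 at an unadjusted p under 0.05), against 0.00487% of genes, and DESeq2 called 3 against 1.92%. Limma called 14 against 2.16%, with the largest differences in Nop58 (2.78 ± 0.47), Nop56 (2.40 ± 0.42), Ddx21 (2.09 ± 0.38) and Wdr43 (2.07 ± 0.47). Without V9, 0 of the 14 passed.

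The difference of the Myc contrast between G1 and cycling cells was itself tested, and 0 members were called by edgeR, DESeq2 or limma. Only A10, A11 and V9 had enough cells of both Myc classes in both G1 and cycling cells. The lack of a call therefore does not show that the contrasts are equal. Over all genes edgeR called 0.00487% and limma 0%, and the share by DESeq2 is not given here. At an unadjusted p under 0.05 edgeR had 0 members, DESeq2 1 lower and limma 2 higher and 2 lower, the smallest p by limma being that of Nifk (0.0116, adjusted 0.799). Its difference between the contrasts was 1.91 ± 0.70 SE, that of Wdr12 -1.56 ± 0.60 and that of Polr1b -1.06 ± 0.48.

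Across cells most pairs of the members examined were weakly and positively correlated. For the 22 members detected in at least 25% of cells, Pearson's r of log2(CPM + 1), centred on the mean of each host, had a median of 0.17 over 231 pairs and 637 cells, and 99.6% of the pairs were above 0. Over all pairs of the 5704 genes detected as often, the median was 0.017 and 62.9% were above 0. The cells of a pair share their library and depth, so these values are descriptions. The highest pair was Pa2g4 with Nolc1 (0.31) and the lowest Tcof1 with Fbl (-0.02). The median was 0.17 after thinning, 0.16 after centring on host and phase, 0.20 in the 177 Myc-positive cells alone and 0.11 in the 460 Myc-negative cells alone. Within single hosts it ran from 0.062 (V7, 55 cells) to 0.21 (A12, 81 cells).

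**Figure D4:**
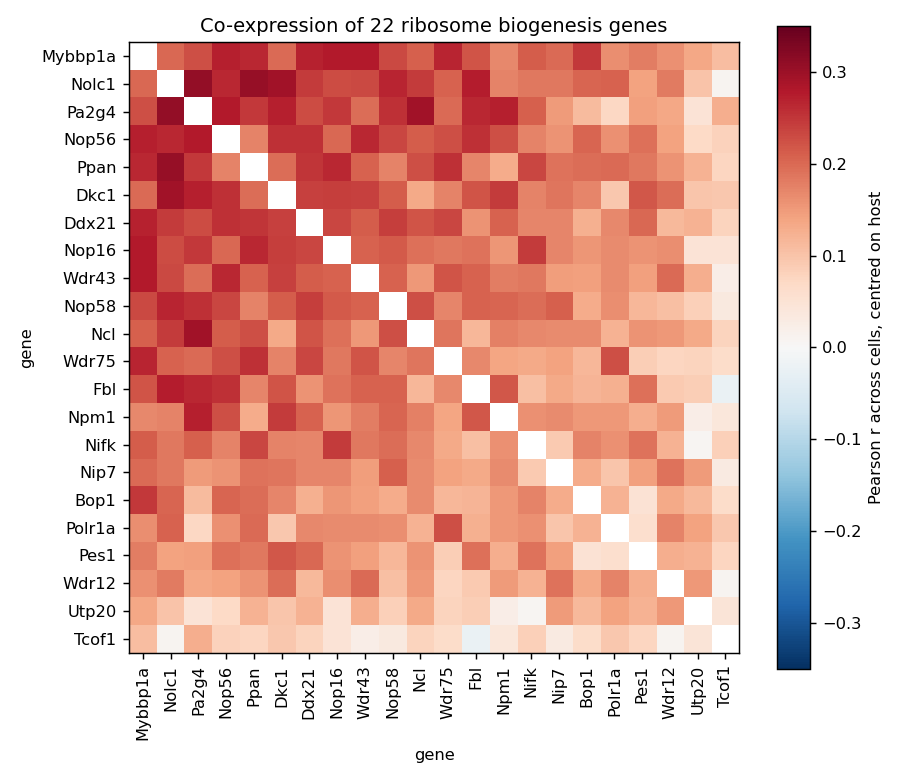
Pearson's r between 22 of the 40 genes across 637 cells, centred on host, with genes ordered by their mean r and the diagonal left blank. Nearly the whole matrix is above 0, with values up to 0.31, and Tcof1 in the last row is close to 0 with most others.

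Each gene was also set against the mean of the other 39. Gnl3 (r = 0.53), Mybbp1a (0.50), Nolc1 (0.48) and Ppan (0.46) followed the rest most closely across the 637 cells, although Gnl3 was detected in 23.4% of cells. Tcof1 (0.11), Noc3l (0.21) and Utp20 (0.22) followed it least. The mean over the 40 genes had an r of 0.56 with the number of genes detected in a cell (0.58 after thinning), 0.32 with log10 total counts, 0.25 with the S phase score and 0.05 with the G2/M score. Within the 177 Myc-positive cells its r with the Myc level was 0.10.

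Between treatments the levels of these genes overlapped. The host means over the 40 genes were 1.62 (A8), 1.81 (A7), 2.15 (A10), 2.48 (A12) and 2.86 (A11) with acalabrutinib and 1.77 (V7), 2.06 (V5) and 2.74 (V9) with vehicle, so each group had hosts above and below hosts of the other. The group means were 2.19 ± 0.50 (SD, n = 5) and 2.19 ± 0.50 (SD, n = 3). In Myc-positive cells they were 3.21 ± 0.35 and 3.29 ± 0.52, and in Myc-negative cells 1.86 ± 0.39 and 1.84 ± 0.24.

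**Figure D5:**
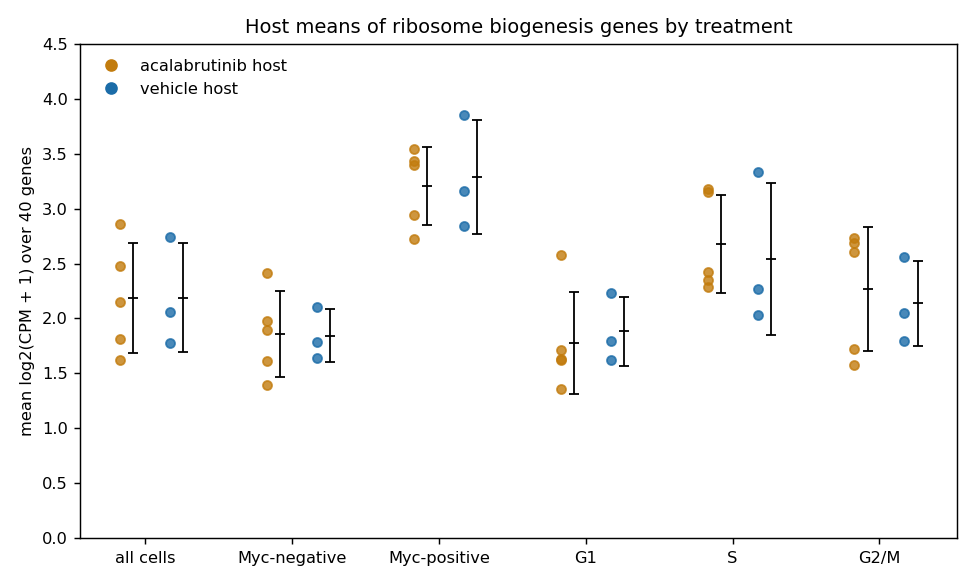
Mean log2(CPM + 1) over the 40 genes for each host (points, orange for 5 acalabrutinib hosts and blue for 3 vehicle hosts) in all cells and in 5 classes of cells, with the mean ± SD beside each group. The groups overlap in every class, and both lie higher in Myc-positive than in Myc-negative cells.

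EdgeR, DESeq2 and limma called 0 members between acalabrutinib and vehicle hosts, and 0 members passed an unadjusted p of 0.05 in any of them. Over all genes edgeR called 0% and limma 0%, with 616 of 18016 and 232 of 10617 genes at an unadjusted p under 0.05, while DESeq2 called 94 genes. Ncl stood at 6.04, 6.92, 7.01, 7.04 and 8.26 in the acalabrutinib hosts and 6.68, 7.88 and 8.36 in the vehicle hosts, a difference of -0.61 ± 0.44 SE by limma. The smallest unadjusted p by limma was that of Nop14, a small subunit processing factor, at 0.095 with a difference of -0.51 ± 0.29, followed by Pes1 (-0.51 ± 0.33). By edgeR it was that of Noc4l, 0.099, with a log2 fold change of 0.55 ± 0.31. With 8 hosts of this spread, differences of such size were not detectable, and a response of 1 genotype cannot be told apart from that of the other in the same host. The difference of the Myc contrast between treatments had 0 members called by edgeR, DESeq2 or limma (0% of all genes by edgeR and 0% by limma). The share of all genes by DESeq2 is not given here. At an unadjusted p under 0.05 there were 0 members by edgeR, 2 higher and 2 lower by DESeq2, and by limma 4 lower, Noc2l (-0.79 ± 0.27), Nip7 (-1.78 ± 0.70), Nop58 (-1.96 ± 0.78) and Polr1a (-1.41 ± 0.62), with adjusted p of 0.96 each.

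No difference between treatments in the share of a class of cells passed the test. Myc-positive cells made up 26.5% ± 13.5 of cells in acalabrutinib and 22.3% ± 12.8 in vehicle hosts (SD, n = 5 and 3, exact two-sided permutation p = 0.71, adjusted 0.71). G1 cells made up 44.3% ± 11.1 and 37.2% ± 7.20 (exact p = 0.38, adjusted 0.71), S cells 32.1% ± 10.5 and 34.3% ± 9.58 (exact p = 0.71, adjusted 0.71) and G2/M cells 23.7% ± 2.89 and 28.5% ± 3.98 (exact p = 0.12, adjusted 0.48). The adjustment covers these 4 shares, and the smallest p that the 56 splits of the hosts allow is 0.018. Per host the share of Myc-positive cells lay between 10.9% (V7) and 43.9% (A11), and the hosts with the highest means over the 40 genes, A11 and V9, also had the highest shares.

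The same contrasts were computed for a list of 114 other genes of the pathway. For Myc, 50 of the 104 that could be tested by limma rose and 0 fell, against 7.63% of all genes called higher, with a median difference of 0.98, while edgeR called 0 of 111 (10 higher and 1 lower at an unadjusted p under 0.05) and DESeq2 9. Those called by limma were 21 of 39 large subunit genes, 17 of 34 of the small subunit processome, 6 of 9 of snoRNP assembly, 3 of 11 of polymerase I and 3 of 11 of the exosome, the complex that trims ribosomal RNA ends. Nhp2, an H/ACA core protein, differed by 2.44 ± 0.32 SE, the large subunit factors Mrto4, Gtpbp4 and Tma16 by 2.22 ± 0.32, 1.95 ± 0.28 and 1.32 ± 0.18, and the small subunit factor Tsr1 by 1.49 ± 0.23. In S against G1 limma called 42 of 104 higher and 0 lower, against 20.5% of all genes called higher, among them 9 of 11 exosome genes, with Exosc8 at 2.49 ± 0.32, Exosc3 at 1.72 ± 0.29 and the polymerase I factor Ubtf at 1.85 ± 0.30. In the same contrast edgeR called 0 of 111 higher (5 at an unadjusted p under 0.05) and 1 lower, the large subunit gene Nop53 (log2 fold change -0.60, adjusted p = 0.0023). In G2/M against G1 limma called 24 of 104 higher, near the 19.2% of all genes, and 1 lower, Ubtf (-0.94 ± 0.32). Among those higher, Utp3 differed by 2.40 ± 0.35, Exosc8 by 2.28 ± 0.35 and Ddx24 by 2.02 ± 0.38. There edgeR called Utp3 higher (log2 fold change 1.08, adjusted p = 0.023) and Nop53 lower (-0.68, adjusted p = 0.00069). Between treatments limma called 0.

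Neighbouring or embedded genes could affect the counts of several members, because reads in introns were counted and no strand setting is given in the sources used here. By the GENCODE M21 annotation, small nucleolar RNA genes lie inside Nop56 (5), Nop58 (4), Wdr43, Gnl3 and Ncl (3 each), Ppan (2) and Dkc1 (1). A protein-coding gene on the opposite strand overlaps 12 members, among them Nop56 (Idh3b), Gnl3 (Pbrm1), Bysl (Ccnd3), Dkc1 (Mpp1) and Mybbp1a (Spns2). What these add to the counts, or take from them, was not tested. Ddx21, Nolc1, Npm1 and Pa2g4 have no such overlap and no embedded snoRNA gene in that annotation.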

How the data were processed

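Single LZ GC B cells were sequenced by SMART-seq2, which has no molecular identifiers. The authors aligned reads to GRCm39 with STARsolo 2.7.10a and assigned a read to a gene on any overlap, introns included. They deposited unnormalized counts deduplicated by exact position, so copies with other ends still count. The errors printed here are SDs over hosts or SEs of fits over hosts. Whether counting used strand is not given in the sources used here. The submitters' processing notes also list GRCm38.

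Here counts were scaled per cell to CPM, and levels are means over cells of log2(CPM + 1). Phases were called with Seurat 5.3.0 from 42 S and 54 G2/M genes, 1 member having been taken out of its list. Counts summed per host and class of at least 5 cells were compared with edgeR 4.0.16 (quasi-likelihood, TMM scaling, low-count filter, host as a block; R 4.3.3), with DESeq2 1.42.0 as an alternative. Because few genes passed, host means of log2(CPM + 1), weighted by cell number, were compared with limma 3.58.1 over genes detected in at least 10% of cells, a choice made after the edgeR results were seen. Calls used a Benjamini-Hochberg adjusted p of 0.05. The host, a mouse, was the replicate, and the block is the mouse from which both classes came. Shares were compared by exact permutation. The edgeR, DESeq2 and limma fits of the Myc and treatment contrasts were tested on simulated data with known changes. The simulated sums shared the same dispersion across genes, so they do not show how edgeR and DESeq2 behave on the real counts. Alternatives were thinning, RLE scaling, no low-count filter, leaving out each host, no block, plate as the block, at least 10 cells per sum, Myc-positive from 10 counts, and cycling by Mki67 and Top2a counts. EdgeR was also run on the genes detected in at least 10% of cells.

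All 40 genes were counted. Values were given for a fixed set of members of each role, for the 5 largest differences past the threshold in each direction or, with none, the 3 smallest p-values, for the highest and lowest correlations, and for up to 5 other pathway genes with the smallest p. Others named were chosen after their values were seen. The members, the 114 other pathway genes and the marker lists were chosen with earlier results of these data known. Promoter sequences are from RefSeq (GRCm38.p6), and gene overlaps from GENCODE M21, also GRCm38, so coordinates of the counted genes are not given.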

Additional observations from a re-analysis of the deposited data

Results flagged for a closer look

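Of 80 sets of host values, 4 held a host far from the nearest of the others relative to the range of the set. Most sets were differences, of each member by Myc detection and of each role by Myc and phase among them. The rest were shares of cells and means of the acalabrutinib hosts, and the sets held 4, 5 or 8 hosts. Chance alone marks about 1 set in 20. The large subunit genes differed between S and G1 by 1.63 in A12, against 0.18 to 0.69 in the other hosts. Gar1 differed by 3.99 between Myc-positive and Myc-negative cells of A7, which had 5 Myc-positive cells, against -0.16 to 1.27 elsewhere. Wdr74 differed by -1.67 in V7, which had 6 such cells, against 0.04 to 1.54 elsewhere. Ddx21 differed by 0.0618 in A10, which had 16, against 2.06 to 3.33 elsewhere. All 4 values are in mean log2(CPM + 1), and their cause was not tested.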

How the results depend on the processing

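With DESeq2 in place of edgeR the counts of members called went from 0 to 16 for Myc, from 2 to 4 for S, from 0 to 1 for G2/M, from 0 to 8 for Myc within G1 and from 0 to 3 for Myc within S and G2/M. By edgeR the S count was 1 without the low-count filter, 1 without the replicate block, 0 with at least 10 cells per sum and 0 with cycling defined by Mki67 and Top2a counts, and the Myc count within G1 was 1 when thinned, 1 without the block and 2 with Myc-positive from 10 counts. By limma the S count of 17 was 11 under the Mki67 and Top2a definition, where Noc2l reversed to -0.13. The Myc count within G1, 1, was 8 when thinned, which also left A10 with too few Myc-positive cells in G1, 5 without the block, 6 with Myc-positive from 10 counts and 13 under the Mki67 and Top2a definition. That within S and G2/M, 14, was 23 without the block and 2 under that definition. Co-expression fell from 0.17 to 0.11 in Myc-negative cells alone. The block changed no other count of members by over 1.5 times. With plate in place of host as the block, the Myc counts were 0 by edgeR and 33 by limma.

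Leaving out 1 host moved the Myc count by limma between 12 (V9) and 31, the S count by edgeR between 0 and 2, the count for Myc within G1 between 0 and 1 by edgeR and between 0 and 5 by limma, and that within S and G2/M by limma between 0 (V9) and 15. The treatment difference in the share of Myc-positive cells lay between -1.45 (V7) and 11.2 percentage points, being -0.11 without A11. That in S cells lay between -7.49 and 1.81 (V5), being 0.85 without A7 and 0.23 without A8. That in G2/M cells lay between -7.19 (V5, exact p = 0.048, the smallest that design allows) and -3.70. The other counts and shares kept their side of the threshold, including 0 members called between treatments under all alternatives run. G2/M against G1 could not be computed under the Mki67 and Top2a definition, which has 1 cycling class. Detection in few cells, 8 hosts, few Myc-positive cells in A7 and V7, and genotypes pooled within a host limit all comparisons.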

Other observations

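Among 10577 genes outside the 40, those whose level followed the mean of the 40 most closely across the 637 cells, centred on host, were Gm9531 (r = 0.53), Mif (0.52), C1qbp (0.52), which encodes a mitochondrial matrix protein, Srm (0.51), the spermidine synthase, Nhp2 (0.49), an H/ACA core protein, and the mitochondrial chaperones Hspa9 (0.48) and Hspd1 (0.48). Myc itself ranked 18 with r = 0.44, and the median of these genes was 0.064. The lowest values were those of Afm (-0.43), 1700128A07Rik (-0.42), Cd74 (-0.40), the invariant chain of MHC class II, and Bach2 (-0.39), a transcriptional repressor of B cells. After thinning, C1qbp (0.54) and Srm (0.53) were highest and Bach2 (-0.44) and Cd74 (-0.43) lowest. Cells share their library and depth across genes, so these values are descriptions, and the genes were named after their values were seen.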
